A study of Mus musculus with 6 samples.

Results

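The genes described are the cytosolic aminoacyl-tRNA synthetases and the translation initiation factors of mouse CD8+ T cells, taken as every gene with a single-symbol probe set on the array whose symbol was one of 20 listed synthetases or began with Eif and a digit, without the Eif2ak kinases. This gave 62 of the 18193 genes with such a probe set, namely 19 synthetases and 43 initiation factor genes, each represented by its brightest probe set over the 6 arrays. The aspartate enzyme Dars had no probe set under this rule, and the methionine enzyme is listed as Mars1. All of the 60 genes tested lay at or above the array median on all 6 arrays. The other 2, Eif2s3y and Eif4a3, lay below it on every array and were not tested.

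Aminoacyl-tRNA synthetases join each amino acid to its tRNA, and several of the cytosolic ones are held together in a multisynthetase complex. Initiation factors bring the initiator tRNA, the small ribosomal subunit and the capped mRNA together, and eIF4E binding proteins and phosphorylation of eIF2 limit that step. T cells that leave the resting state are known to raise protein synthesis before they divide, and the transcription factor ATF4 is known to act on genes of amino acid metabolism and on several synthetase genes.

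Affymetrix mouse expression arrays were hybridised with RNA of splenic naive CD8+ T cells of C57/BL6 mice, 1 array for each of 6 conditions. The wild-type (Nrdp1+/+) and the Nrdp1-/- cells were each untreated (0 h) or were stimulated for 4 h or 8 h on plates coated with anti-CD3 (5 µg/ml), with anti-CD28 (1 µg/ml) in solution. These antibodies engage the T cell receptor complex and the costimulatory receptor CD28. Nrdp1 is a ubiquitin ligase encoded by Rnf41. The labels do not give the animals' age or the deleted part of the gene. Nor do they give the number of mice behind each RNA or whether arrays share animals. No condition has a replicate array. The p-values therefore rest on how far the genotypes depart from a shared time course, moderated over genes of similar signal. Such departures may be technical, and the spread between animals was not measured. One label of the stimulated samples names anti-CD28 alone, and the extraction text names whole colon, against the titles.

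The arrays were therefore checked with marker genes. All of 7 measured CD8 T cell markers lay at or above the array median on every array, and 1 to 3 of 10 colon markers did so. The summed signal of 11 B cell markers was 14620 to 17050 on the wild-type arrays and 3070 to 3371 on the Nrdp1-/- arrays. That of 13 myeloid markers was 1779 to 1935 on the wild-type arrays, and 13440 (0 h), 8723 (4 h) and 3061 (8 h) on the Nrdp1-/- arrays. In such bulk samples fewer cells of a type and less RNA per cell cannot be told apart. Rnf41 itself differed by -0.36 ± 0.12 on the log2 scale between Nrdp1-/- and wild type (SE, 6 arrays; limma, adjusted p = 0.128), and a probe set outside the deleted part checks nothing about the labels. The 3' to 5' signal ratio, a sign of RNA integrity, lay between 0.815 and 0.894 (Gapdh) and between 1.39 and 1.53 (beta-actin).

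The synthetase genes rose almost as a family. At 4 h and at 8 h of stimulation, 18 of the 19 synthetases were higher than in untreated cells, and none fell (limma over 10838 genes, Benjamini-Hochberg adjusted p under 0.05). Of all genes tested, 8.01% rose and 5.51% fell at 4 h, and 9.88% rose and 9.26% fell at 8 h. The same 18 genes rose at both times, which share the untreated arrays, and the exception at both was the glutamine enzyme Qars. The median log2 change was 0.80 at 4 h and 0.84 at 8 h, against -0.049 and -0.067 over all genes. These changes are differences of log2(signal + 4.45) from the additive fit of time and genotype. Of the 19 genes, 5 passed a 2-fold change at each time. For 18 of 19 genes, at each time, both stimulated arrays lay above both untreated arrays, a pattern that 22.5% of all genes showed at 4 h and 24% at 8 h.

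The calls depended on how the spread was estimated. With eBayes run without the intensity trend, limma called 0 of 19 synthetases risen at 4 h and 1 at 8 h (Mars1), although 18 had an unadjusted p under 0.05 at each time. Over all genes that setting called 83 risen at 4 h and 103 at 8 h. The direction does not come from the Nrdp1-/- arrays alone: in the wild-type arrays, 19 of 19 synthetases were higher at 4 h and 18 at 8 h, with median log2 changes of 0.77 and 0.75.

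**Figure D1:**
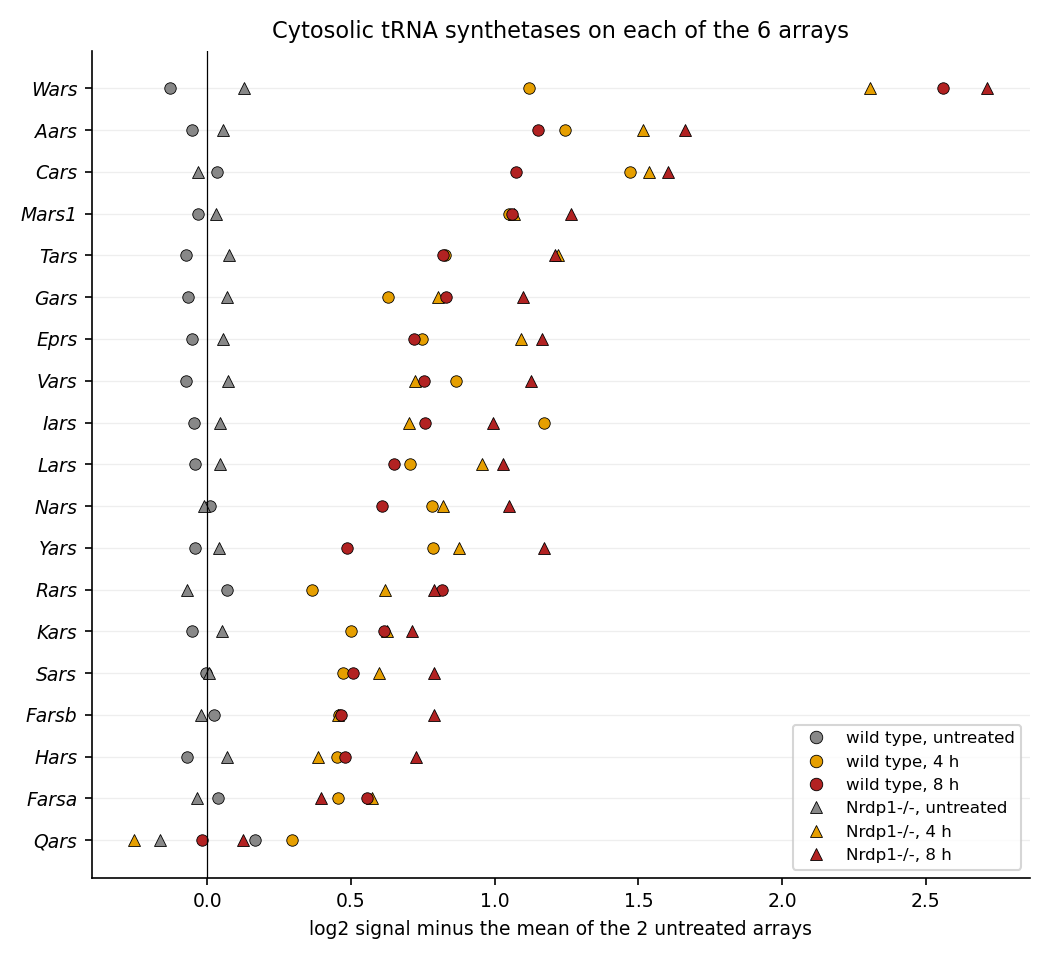
Log2 signal of each of the 19 synthetases on each array, minus the mean of the 2 untreated arrays (x axis); circles are wild-type and triangles Nrdp1-/- arrays, in grey (untreated), orange (4 h) and red (8 h). For 18 genes all 4 stimulated arrays lie to the right of both untreated ones, and for Qars they do not.

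Wars, the tryptophan enzyme, had the largest change of the synthetases. Its signal was 392 in untreated, 933 in 4 h and 2529 in 8 h wild-type cells, and 469, 2120 and 2815 in the Nrdp1-/- cells at the same times. The stimulated arrays lay above the untreated ones in both genotypes, and the 4 h array of the Nrdp1-/- cells lay well above that of the wild type. Wars rose by 1.70 ± 0.21 at 4 h (limma, adjusted p = 0.000291) and by 2.62 ± 0.21 at 8 h (adjusted p = 1.03e-05), a 6.16-fold change. The brightest Wars probe set is of a type that can share probes with other transcripts, and its other 3 probe sets rose by 2.24 to 2.43 at 8 h. Wars lies on chr12:108860030-108894175 (GRCm38.p6).

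Wars is also known as a gene induced by interferon gamma. The signal of Ifng, which encodes that cytokine, was 27.1, 1011 and 824 in wild-type cells at 0, 4 and 8 h, and 80.4, 3786 and 6323 in Nrdp1-/- cells. Both genes were above wild type on all 3 Nrdp1-/- arrays, but by amounts that took a different course. The log2 difference at 0, 4 and 8 h was 1.43, 1.90 and 2.93 for Ifng, and 0.26, 1.18 and 0.16 for Wars. The part of Ifng in the Wars values was not tested.

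The alanine and cysteine enzymes followed. Aars signals were 673, 1656 and 1551 in wild-type cells at 0, 4 and 8 h, and 726, 1998 and 2216 in Nrdp1-/- cells. Cars signals were 289.7, 785 and 596 in wild type, and 277, 821 and 860.1 in Nrdp1-/- cells. Both genes were already at or near their highest wild-type signal at 4 h. Aars rose by 1.37 ± 0.13 and 1.40 ± 0.13 at 4 h and 8 h, and Cars by 1.49 ± 0.17 and 1.33 ± 0.17 (limma, adjusted p between 3.31e-05 and 0.000359). The threonine enzyme Tars had signals of 1446, 2699 and 2690.0 in wild type, and 1604, 3547 and 3519 in Nrdp1-/- cells. It rose by 1.02 ± 0.11 at 4 h and 1.01 ± 0.11 at 8 h. The glycine enzyme Gars, whose gene also serves mitochondria, gave 2585, 4193 and 4818 in wild type, and 2842, 4733 and 5810 in Nrdp1-/- cells, with changes of 0.72 ± 0.10 and 0.96 ± 0.10.

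The RefSeq promoter windows of these genes (250 bases before to 50 after an annotated start, GRCm38.p6, with more than 1 window for some genes) were searched for the C/EBP-ATF composite element, to which ATF4 is known to bind, spelled TGATGNAA or, on the other strand, TTNCATCA. Of the 19 synthetases, 12 had an entry in the promoter table. The background is all 27025 genes of that table, tested on the arrays or not, of which 4.51% held the element. Of the 12 synthetases, 5 (41.7%) held it. They were Aars, with 2 matches, Gars, Iars, Tars and Yars. Of 34 initiation factor genes with an entry, 1 held it (2.94%), which was Eif2s3x. The matches are shown with 8 bases on each side because they are the sequence these synthetases share, with the match in capitals, read 5′ to 3′ on the gene's strand.
Aars: cttgagcaTTGCATCAgccgagcc
Aars: gggtcactTTTCATCAgagcgctc
Gars: ctgcgctaTTTCATCAtgcaccgg
Iars: tgtcagtaTTGCATCAcctccaga
Tars: gagtcccgTTGCATCAgctggtta
Yars: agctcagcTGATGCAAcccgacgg
Eif2s3x: gccatcatTTTCATCAggtctatg
In the order shown these lie at chr8:111033722-111033745, chr8:111033843-111033866, chr6:55037963-55037986, chr13:49682129-49682152, chr15:11399658-11399681 on the minus strand, chr4:129189898-129189921 and chrX:94212732-94212755 on the minus strand. The windows of Aars and Yars begin from a start that lies inside the annotated gene, downstream of its outermost end. A match is a description of these letters, and no binding was measured. Of the genes that rose without a match, Mars1 changed by 1.06 at 4 h and 1.16 at 8 h, and Eif2s3x has a match and did not pass the threshold. Wars, Cars, Eif4ebp1 and Eif2b3 had no entry in the table.

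The 250 bases before the start of Gars, Tars and Qars set 2 risen genes with a match beside the 1 synthetase that did not rise. Capitals mark the composite element.
Gars: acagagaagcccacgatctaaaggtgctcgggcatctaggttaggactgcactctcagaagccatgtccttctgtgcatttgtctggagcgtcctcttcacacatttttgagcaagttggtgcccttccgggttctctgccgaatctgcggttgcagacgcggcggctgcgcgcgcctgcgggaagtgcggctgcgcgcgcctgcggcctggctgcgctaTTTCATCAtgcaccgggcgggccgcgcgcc
Tars: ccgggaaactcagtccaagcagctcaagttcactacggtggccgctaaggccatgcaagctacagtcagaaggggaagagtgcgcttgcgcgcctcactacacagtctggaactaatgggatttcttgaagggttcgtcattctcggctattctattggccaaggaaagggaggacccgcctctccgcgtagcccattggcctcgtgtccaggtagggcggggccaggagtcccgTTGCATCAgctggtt
Qars: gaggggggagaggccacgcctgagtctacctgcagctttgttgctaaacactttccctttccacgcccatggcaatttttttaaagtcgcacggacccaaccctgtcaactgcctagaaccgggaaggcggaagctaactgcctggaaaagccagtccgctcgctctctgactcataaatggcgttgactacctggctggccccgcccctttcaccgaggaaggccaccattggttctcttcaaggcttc
They lie at chr6:55037751-55038000, chr15:11399659-11399908 on the minus strand and chr9:108507755-108508004. The Qars run holds neither this element nor the E-box CACGTG. The E-box is the sequence bound by Myc and related factors, and it reads the same on both strands. The same stretch of Mars1, which rose by 1.06 at 4 h and 1.16 at 8 h, also holds neither. The E-box was in 4 of 12 synthetase genes with an entry (33.3%), which were Aars, Farsb, Iars and Tars. It was in 9 of 34 initiation factor genes (26.5%) and in 8.09% of all genes of the promoter table, tested on the arrays or not. Genes differ in their number of windows, and by window the shares were 33.3%, 23.9% and 7.15%. A background of tested genes alone was not counted.

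Enzymes both inside and outside the multisynthetase complex rose. Of 7 complex members tested, 6 rose at each time, with medians of 0.83 and 0.84, and all 12 of the others rose, with medians of 0.80 and 0.88. Mars1, the methionine enzyme of the complex, had signals of 1226, 2596 and 2614 in wild-type cells at 0, 4 and 8 h, and 1280.0, 2625 and 3010.0 in Nrdp1-/- cells. The genotypes were close at 0 h and 4 h, and Mars1 rose by 1.06 ± 0.11 and 1.16 ± 0.11 (limma, adjusted p = 8.85e-05 and 3.81e-05). Eprs, which charges both glutamate and proline, went from 1720.0 to 2996 and 2940.0 in wild type, and from 1854 to 3810.0 and 4006 in Nrdp1-/- cells. Its changes were 0.92 ± 0.11 and 0.94 ± 0.11.

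The isoleucine enzyme Iars was 1805, 4193 and 3144 in wild type, and 1920.0, 3031 and 3709 in Nrdp1-/- cells. Its highest wild-type signal was at 4 h, and its highest Nrdp1-/- signal at 8 h. The leucine enzyme Lars gave 1972, 3312 and 3189 in wild type, and 2096, 3947 and 4151 in Nrdp1-/- cells. Changes at 4 h and 8 h were 0.94 ± 0.15 and 0.87 ± 0.15 for Iars, and 0.83 ± 0.11 and 0.84 ± 0.11 for Lars. The arginine enzyme Rars was 2144, 2632 and 3599 in wild type, and 1948, 3137 and 3529 in Nrdp1-/- cells. It was higher at 8 h than at 4 h in both genotypes, with changes of 0.49 ± 0.12 and 0.80 ± 0.12. The lysine enzyme Kars had signals of 2062, 3022 and 3275 in wild type and 2216, 3300.0 and 3499 in Nrdp1-/- cells, with changes of 0.56 ± 0.10 and 0.66 ± 0.10.

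Qars was the member of the complex that did not rise. Its signals were 4079, 4469 and 3593 in wild-type cells at 0, 4 and 8 h, and 3247, 3053 and 3970.0 in Nrdp1-/- cells. Stimulated and untreated arrays overlapped at both times, and the changes were 0.022 ± 0.14 (limma, adjusted p = 0.945) and 0.053 ± 0.14 (adjusted p = 0.834). Its other 3 probe sets changed by between -0.25 and 0.062 at 8 h. Taking the mean of all 4 turned both changes negative, to -0.18 at 4 h and -0.043 at 8 h.

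Among the other synthetases outside the complex, the asparagine enzyme Nars had signals of 3449, 5891 and 5220.0 in wild type, and 3402, 6047 and 7092 in Nrdp1-/- cells. The valine enzyme Vars had 811, 1557 and 1440.0, and 898, 1409 and 1866. The tyrosine enzyme Yars had 433, 767 and 624, and 459, 819 and 1005. All 3 had a lower signal at 8 h than at 4 h in wild type and a higher one in Nrdp1-/- cells. Their changes at 4 h and 8 h were 0.80 ± 0.12 and 0.83 ± 0.12 for Nars, 0.79 ± 0.14 and 0.94 ± 0.14 for Vars, and 0.82 ± 0.17 and 0.82 ± 0.17 for Yars.

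At 8 h the smallest changes that passed were those of the serine, histidine and phenylalanine enzymes. Sars had signals of 2350.0, 3271 and 3346 in wild type, and 2364, 3567 and 4070.0 in Nrdp1-/- cells. Hars had 2588, 3715 and 3782, and 2851, 3552 and 4498. Both were above the untreated arrays on all stimulated arrays, and rose by 0.53 ± 0.11 and 0.65 ± 0.11 (Sars) and by 0.42 ± 0.11 and 0.60 ± 0.11 (Hars). Farsa and Farsb encode the subunits of 1 enzyme. Farsa had 915, 1224 and 1310.0 in wild type, and 869.6, 1327 and 1173 in Nrdp1-/- cells, while Farsb had 2017, 2728 and 2739, and 1953, 2718 and 3426. Their changes differed little, with 0.51 ± 0.12 and 0.47 ± 0.12 for Farsa, and 0.46 ± 0.12 and 0.62 ± 0.12 for Farsb. Further probe sets at or above the array median on all arrays changed at 8 h by -0.038 and -0.267 (Farsa), and by 0.675, 0.957 and -0.171 (Farsb). Farsa did not pass at 8 h with arrays centred on their median or with the mean of its probe sets.

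Other probe sets of the synthetase genes mostly moved the same way. The 18 risen genes had 16 further probe sets, of 9 genes, at or above the array median on all arrays, and 15 of them changed upward in value at 4 h and 13 at 8 h. With the mean of all probe sets of a gene, 14 synthetases rose at 4 h and 16 at 8 h.

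The mitochondrial synthetases, which are nuclear genes for a separate translation system, passed in 1 case. Of 15 tested, 0 were called at 4 h in limma (2 at an unadjusted p under 0.05) and 1 at 8 h, with medians of 0.056 and 0.11. The 1 was Yars2, at 0.62 ± 0.18 (adjusted p = 0.035), with signals of 453, 665 and 622 in wild type, and 504, 533 and 876 in Nrdp1-/- cells. Of the 3 scaffold genes of the multisynthetase complex, Aimp2 and Eef1e1 rose. Aimp2 changed by 0.88 ± 0.14 at 4 h and 1.10 ± 0.14 at 8 h, and Eef1e1 by 0.93 ± 0.13 and 1.18 ± 0.13. Aimp1 had changes of 0.005 ± 0.11 and 0.28 ± 0.11, which did not pass (adjusted p = 0.985 and 0.0866).

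**Figure D2:**
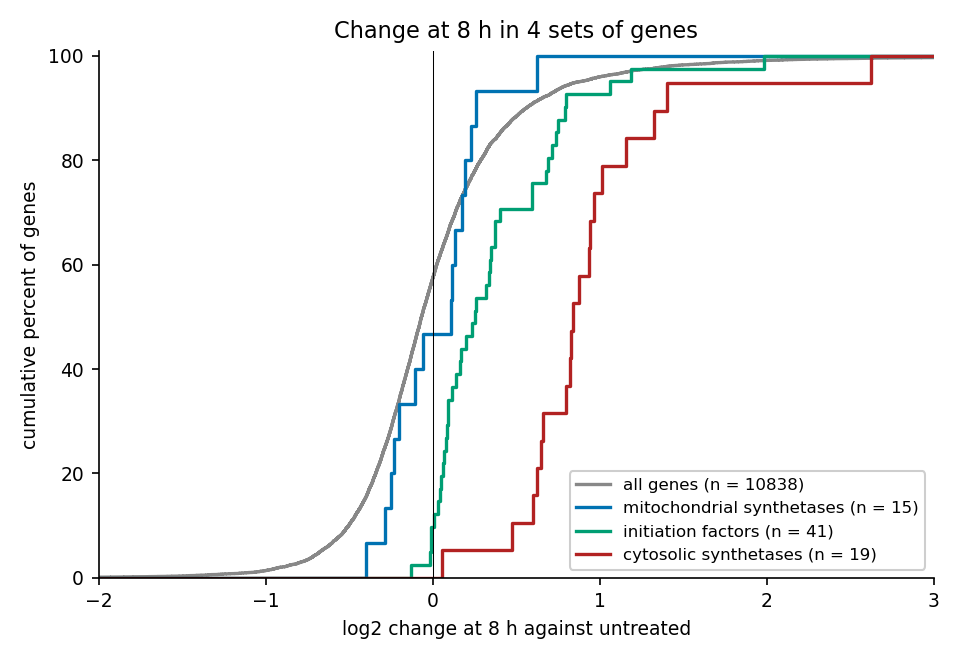
Cumulative percent of genes (y axis) by log2 change at 8 h against untreated (x axis), for all 10838 genes tested, 15 mitochondrial synthetases, 41 initiation factors and 19 cytosolic synthetases. The curve of the cytosolic synthetases (median 0.84) lies to the right of that of the initiation factors (median 0.26), and that of the mitochondrial synthetases (median 0.11) lies near that of all genes.

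Initiation factors rose in part. Of 41 tested, 10 were higher at 4 h and 16 at 8 h, and 0 fell at either time, against 8.01% and 9.88% of all genes risen (limma, adjusted p under 0.05; with 0 at an unadjusted p under 0.05 in the downward direction). The median log2 change was 0.24 at 4 h and 0.26 at 8 h. The 10 genes that rose at both times were Eif4ebp1, Eif2b3, Eif4e, Eif1a, Eif3b, Eif2s2, Eif5a, Eif4a1, Eif3c and Eif6. A further 6 passed at 8 h only, and 25 passed at neither time. Both stimulated arrays lay above both untreated ones for 28 of 41 genes at 4 h and 29 at 8 h, against 22.5% and 24% of all genes. Without the intensity trend 0 initiation factors were called at 4 h and 1 at 8 h (Eif4ebp1), with 10 and 16 at an unadjusted p under 0.05.

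**Figure D3:**
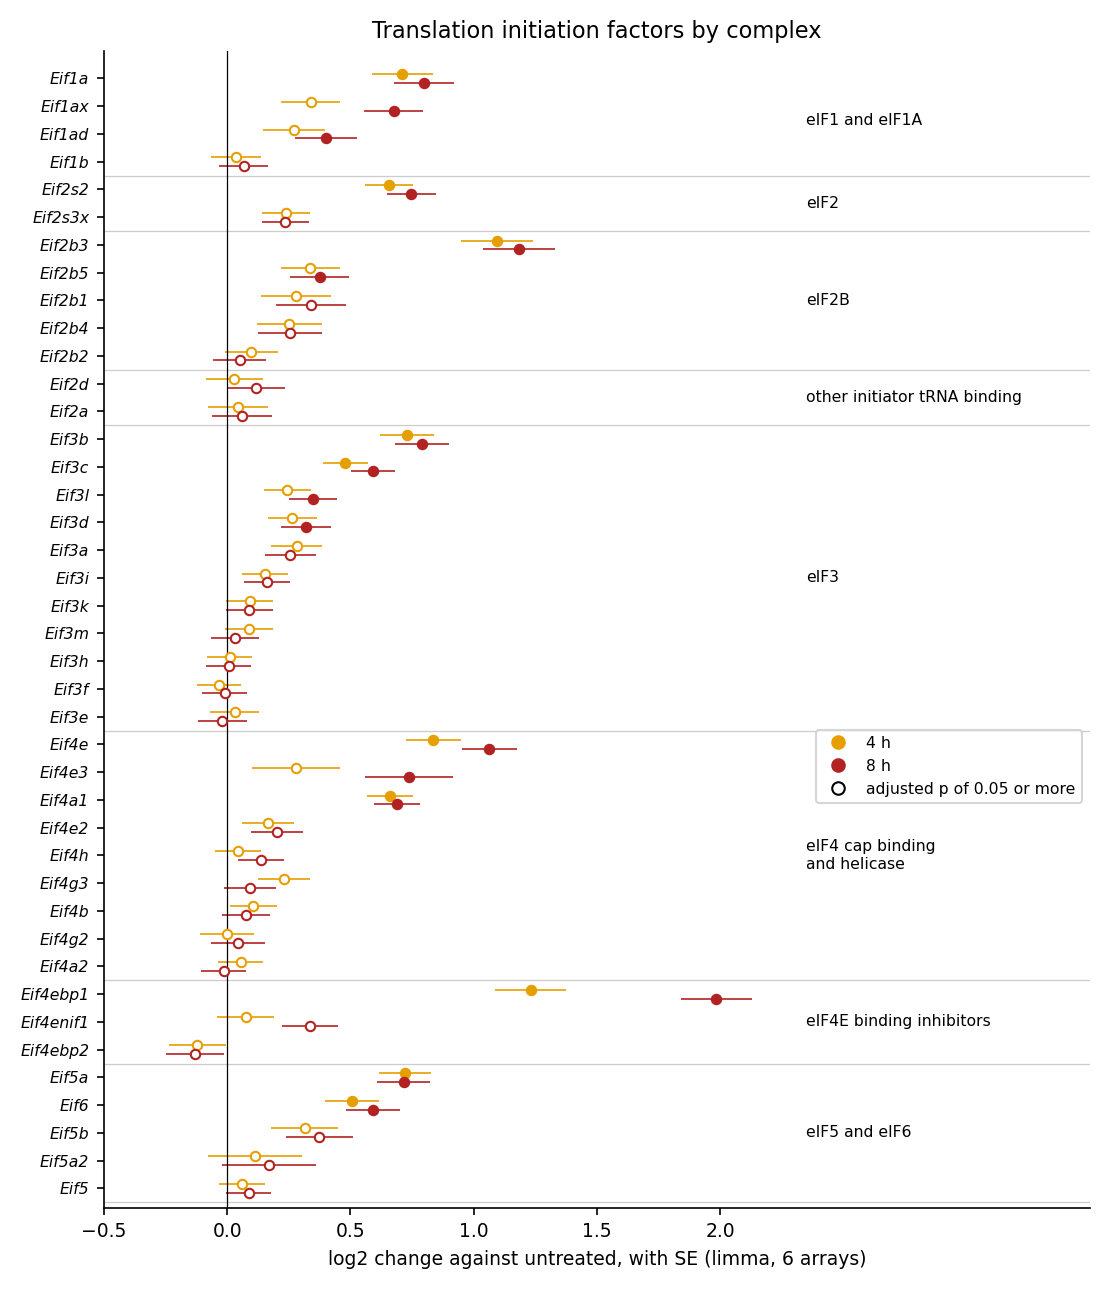
Log2 change at 4 h (orange) and 8 h (red) against untreated, with SE from limma over 6 arrays (x axis), for the 41 initiation factor genes tested, grouped by complex (y axis); filled points passed an adjusted p of 0.05. Eif4ebp1 has the largest change (1.98 at 8 h), and within each of eIF2B, eIF3 and the eIF4 group some genes are filled and others lie near 0.

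The initiator tRNA is carried by eIF2, a GTPase. Its beta subunit Eif2s2 had signals of 7926, 11490 and 12630 in wild-type cells at 0, 4 and 8 h, and 7653, 13140 and 13550 in Nrdp1-/- cells. All stimulated arrays lay above the untreated ones, and Eif2s2 rose by 0.66 ± 0.10 and 0.75 ± 0.10 (limma, adjusted p = 0.00128 and 0.000476). The alpha subunit gene Eif2s1 had no probe set under the rule used. The gamma subunit has an X-linked and a Y-linked gene. Eif2s3x signals were 6673, 8278 and 8403 in wild type, and 7709, 8648 and 8509 in Nrdp1-/- cells. Its changes of 0.24 ± 0.10 at each time did not pass (adjusted p = 0.137 and 0.115), although all stimulated arrays lay above both untreated ones. Eif2s3y was below the array median everywhere, with signals of 1.32, 45.4 and 33.2 in wild type and 0.531, 2.71 and 3.90 in Nrdp1-/- cells, and these have no order that can be read.

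The guanine nucleotide exchange factor eIF2B returns eIF2 to its active form and is the point at which phosphorylated eIF2 blocks initiation. Of its 5 subunits, Eif2b3 (gamma) rose at both times and Eif2b5 (epsilon, the catalytic one) at 8 h. Eif2b3 signals were 338, 749 and 704 in wild type, and 359, 750.1 and 903 in Nrdp1-/- cells. It rose by 1.10 ± 0.15 and 1.19 ± 0.15 (adjusted p = 0.000578 and 0.000305). Eif2b5 lay just inside the threshold at 8 h, at 0.38 ± 0.12 (adjusted p = 0.0496). Eif2b1, Eif2b4 and Eif2b2 had 8 h changes of 0.34 ± 0.14, 0.26 ± 0.13 and 0.051 ± 0.11, and did not pass. The 5 subunit genes of eIF2B thus had changes from 0.051 to 1.19 at 8 h.

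The factors eIF1 and eIF1A settle on the small ribosomal subunit and take part in start codon choice. Of the genes grouped with them by name, Eif1a, Eif1ax and Eif1ad passed at 8 h. Eif1a had signals of 812, 1213 and 1280.0 in wild type, and 878, 1580.0 and 1692 in Nrdp1-/- cells, and rose by 0.71 ± 0.12 and 0.80 ± 0.12. Eif1ax had 2521, 3055 and 3479, and 2203, 2910.0 and 4083, and changed by 0.34 ± 0.12 at 4 h (adjusted p = 0.0873) and 0.68 ± 0.12 at 8 h (adjusted p = 0.00293). Its other probe sets, dimmer but at or above the array median on all 6 arrays, did not share this rise. They changed by 0.034 and -0.257 at 4 h, and by 0.041 and -0.012 at 8 h. Eif1a and Eif1ax are close copies of each other, so probes may read both. Eif1ad changed by 0.40 ± 0.13 at 8 h (adjusted p = 0.0464), and Eif1b by 0.067 ± 0.10 (adjusted p = 0.692). Eif2d and Eif2a, which can bring initiator tRNA by other routes, changed by 0.12 ± 0.12 and 0.060 ± 0.12 at 8 h and did not pass.

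The scaffold eIF3, the largest initiation factor, had 2 of 11 subunit genes risen at 4 h and 4 at 8 h. Eif3b signals were 1461, 2391 and 2360.0 in wild type, and 1450.0, 2441 and 2699 in Nrdp1-/- cells, with changes of 0.73 ± 0.11 and 0.79 ± 0.11. Eif3c signals were 9382, 13200 and 14040 in wild type, and 10370, 14340 and 15750 in Nrdp1-/- cells, with changes of 0.48 ± 0.09 and 0.59 ± 0.09. Both were above the untreated arrays on all 4 stimulated arrays. Eif3l (0.35 ± 0.10, adjusted p = 0.0279) and Eif3d (0.32 ± 0.10, adjusted p = 0.0457) passed at 8 h. The other subunits tested, Eif3a, Eif3i, Eif3k, Eif3m, Eif3h, Eif3f and Eif3e, had 8 h changes from -0.019 (Eif3e) to 0.26 (Eif3a). The median over the 11 was 0.16 at 8 h. Eif3g and Eif3j had no probe set under the rule used.

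The cap-binding complex eIF4F joins the cap-binding protein eIF4E, the helicase eIF4A and the scaffold eIF4G. Eif4e signals were 1630.0, 2694 and 3065 in wild type, and 1605, 3104 and 3741 in Nrdp1-/- cells. It rose by 0.84 ± 0.11 at 4 h (limma, adjusted p = 0.00061) and 1.06 ± 0.11 at 8 h (adjusted p = 0.000102). Eif4a1 signals were 9329, 13940 and 14780 in wild type, and 9618, 16090 and 15770 in Nrdp1-/- cells, with changes of 0.66 ± 0.09 and 0.69 ± 0.09. Its paralog Eif4a2 stayed between 18080 and 19310 on the 6 arrays, and its 8 h change was -0.013 ± 0.09. The cap-binding paralog Eif4e3 had signals of 356, 388 and 679 in wild type, and 389, 527 and 574 in Nrdp1-/- cells. It passed at 8 h alone, with changes of 0.28 ± 0.18 (adjusted p = 0.348) and 0.74 ± 0.18 (adjusted p = 0.0151). The paralog Eif4e2, the eIF4G family genes Eif4g2 and Eif4g3, and the helicase cofactors Eif4b and Eif4h had 8 h changes of 0.044 to 0.20 and did not pass. The scaffold gene Eif4g1 had no probe set under the rule used and was not measured here.

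The RefSeq table has 2 windows for Eif4e, and the one that belongs to a start inside the annotated gene holds 2 E-boxes. They are shown in capitals with 8 bases on each side, because Eif4e rose most of the initiation factor genes with an E-box in their window.
Eif4e: ccagcgacCACGTGatcacttt
Eif4e: acgtccgtCACGTGggcaggag
They lie at chr3:138527032-138527053 and chr3:138527196-138527217, at positions -228 and -64 from that inner start. The window at the outermost start of the gene has no such match. Other initiation factor genes with an E-box in their window were Eif1b, Eif3a, Eif3f, Eif3k, Eif4a1, Eif4h, Eif5a and Eif5a2, of which Eif4a1 and Eif5a rose and the other 6 did not pass.

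Eif4ebp1, which encodes an inhibitor that holds eIF4E away from the cap-binding complex until mTORC1 phosphorylates it, had the largest change of the initiation factor genes. Its signals were 646, 1738 and 2368 in wild-type cells at 0, 4 and 8 h, and 758, 1567 and 3266 in Nrdp1-/- cells. All arrays at 8 h lay above those at 4 h, and these above the untreated arrays. Eif4ebp1 rose by 1.23 ± 0.14 at 4 h (limma, adjusted p = 0.000235) and 1.98 ± 0.14 at 8 h (adjusted p = 5.88e-06), a 3.96-fold change. A further probe set of similar brightness rose by 1.66 at 8 h, and a dimmer one by 0.46. The related inhibitor Eif4ebp2 had changes of -0.12 ± 0.12 and -0.13 ± 0.12, and the eIF4E transporter Eif4enif1 had 0.075 ± 0.11 and 0.34 ± 0.11 (adjusted p = 0.0631 at 8 h), none of which passed. The probe set of Eif4ebp3 carries 2 symbols and was not analysed here.

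Of the factors of subunit joining and later steps, Eif5a and Eif6 rose. Eif5a encodes a hypusine-bearing protein that aids peptide bond formation at difficult sequences. It had signals of 12260, 22930 and 22060 in wild type, and 15680, 22830 and 23520 in Nrdp1-/- cells, with changes of 0.72 ± 0.11 at each time. Eif6, which keeps the large ribosomal subunit from joining too early, had 2534, 3206 and 3605 in wild type, and 2214, 3537 and 3540.0 in Nrdp1-/- cells, with changes of 0.51 ± 0.11 and 0.59 ± 0.11. Both were higher on every stimulated array than on either untreated one. Eif5b, the GTPase of subunit joining, changed by 0.37 ± 0.14 at 8 h (adjusted p = 0.0795). Eif5 and Eif5a2 had 8 h changes of 0.087 ± 0.09 and 0.17 ± 0.19, and did not pass. Other probe sets of the risen initiation factor genes that lay at or above the array median, 21 of 11 genes, changed upward in value in 19 cases at 4 h and 20 at 8 h.

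**Figure D4:**
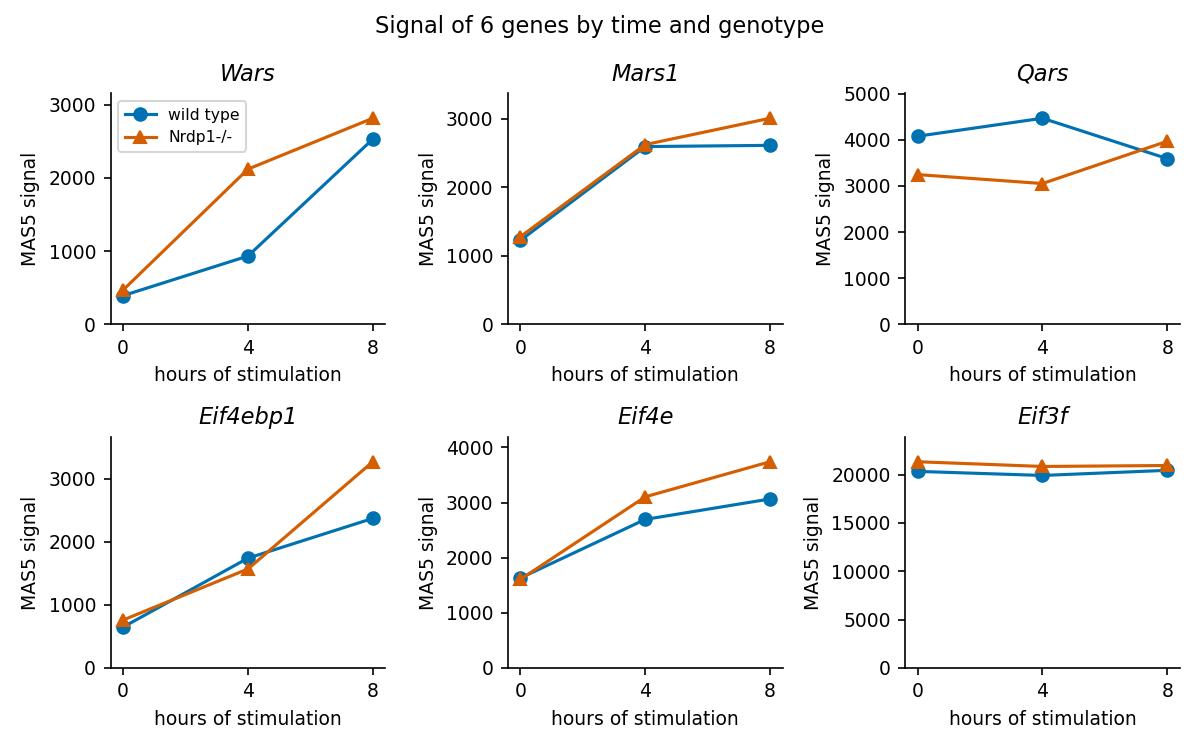
MAS5 signal (y axis, from 0) against hours of stimulation (x axis) for Wars, Mars1, Qars, Eif4ebp1, Eif4e and Eif3f, with 1 array per point, circles for wild type and triangles for Nrdp1-/-. Eif3f stays between 19920 and 21340, Qars shows no common course, and in the other 4 genes all stimulated arrays lie above the untreated ones.

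Between 4 h and 8 h no member was called (limma, 0 of 60, against 0.0461% of all genes). In the same fit 7 members had an unadjusted p under 0.05, and the share of all genes there was not counted. The largest differences were in Wars, at 0.92 ± 0.21 (adjusted p = 0.162), and Eif4ebp1, at 0.75 ± 0.14 (adjusted p = 0.0841). When any 1 of the 6 arrays was left out, Wars, Eif4ebp1 or both were called. Each of those fits left a single array at 1 time, and each called more of all genes than the full fit did. With arrays centred on their median, Eif4ebp1 was called as well. That setting called 40 of all 10838 genes, against 5 in the full fit.

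Neighbouring steps of translation were measured alongside. Of 8 elongation and termination genes tested, 2 rose at 4 h and 3 at 8 h. They were the ribosome recycling factor Abce1 (0.78 ± 0.11 and 0.87 ± 0.11), the release factor Etf1 (0.52 ± 0.12 and 0.60 ± 0.12) and, at 8 h, its partner Gspt1 (0.50 ± 0.11). Of 6 genes for kinases and phosphatase subunits that act on eIF2 alpha, 1 rose and 1 fell at each time. Eif2ak3, the kinase that senses endoplasmic reticulum stress, fell by -0.61 ± 0.11 and -0.38 ± 0.11. The phosphatase subunit Ppp1r15a rose at 4 h (0.58 ± 0.15), and the double-stranded RNA sensor Eif2ak2 at 8 h (0.87 ± 0.20).

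Of 9 genes of the ATF4 response tested, 5 rose at 4 h and 6 at 8 h. Atf4 itself changed by 0.61 ± 0.11 and 0.74 ± 0.11, with signals of 4016, 5511 and 5973 in wild type, and 3923, 6707 and 7342 in Nrdp1-/- cells. The asparagine synthetase gene Asns, a known ATF4 target that is not a tRNA synthetase, changed by 1.74 ± 0.13 and 2.25 ± 0.13. Atf3 rose by 1.47 ± 0.26 and 1.66 ± 0.26, and Chac1 by 1.22 ± 0.23 and 1.68 ± 0.23. Ddit3, another target, did not pass (0.062 ± 0.11 and -0.14 ± 0.11). Of 9 genes for poly(A) binding and mTORC1, Pabpc4 rose at both times (0.57 ± 0.11 and 0.78 ± 0.11), the eIF4A inhibitor Pdcd4 fell at both (-0.47 ± 0.11 and -0.50 ± 0.11), and Rptor fell at 8 h (-0.46 ± 0.13).

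Between the genotypes no member was called. Of 60 members, 0 passed (limma, adjusted p under 0.05), against 5.05% of all genes, and 8 had an unadjusted p under 0.05. Those 8 were 6 synthetases and 2 initiation factors, Eif1a and Eif3a, and all were higher in Nrdp1-/- cells in value. The share of all genes at that unadjusted threshold was not counted, so the 8 have no background. The largest difference was in Wars, at 0.53 ± 0.17 (adjusted p = 0.114). Among the synthetases it was followed by Tars at 0.31 ± 0.09 (adjusted p = 0.0852), Eprs at 0.30 ± 0.09 (adjusted p = 0.105) and Aars at 0.30 ± 0.10 (adjusted p = 0.158). Of the initiation factors, Eif5a2 differed by 0.30 ± 0.16 (adjusted p = 0.375) and Eif1a by 0.30 ± 0.10 (adjusted p = 0.144). Wars was called when either untreated array or either 8 h array was left out, and on the 4 stimulated arrays alone. These settings are not separate checks, since an array without its partner adds nothing to the genotype estimate. The fits without an untreated array and the stimulated arrays alone share an estimate from 4 h and 8 h. Those without an 8 h array share another, from untreated and 4 h. Both include the 4 h arrays, where Wars differed by 1.18. Qars, at -0.24 ± 0.12 in the full data (adjusted p = 0.341), was called together with Wars without either 8 h array.

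The genotype difference of Wars was 1.18 at 4 h, 0.26 untreated and 0.16 after 8 h, each between 2 single arrays with no replicate check. Over the synthetases, 13 of 19 were higher in Nrdp1-/- cells in value when untreated, 14 at 4 h and 17 at 8 h, with medians of 0.088, 0.12 and 0.28. The same medians over all genes were -0.016, 0.008 and -0.028. Of all genes, 47.4%, 51.3% and 46% were higher at these times. Of the 19, 10 were higher at all 3 times. The initiation factors had medians of 0.052, 0.036 and 0.035, and 8 of 41 were higher at all 3 times. The share of all genes higher at all 3 times was not counted, so these counts have no background.

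**Figure D5:**
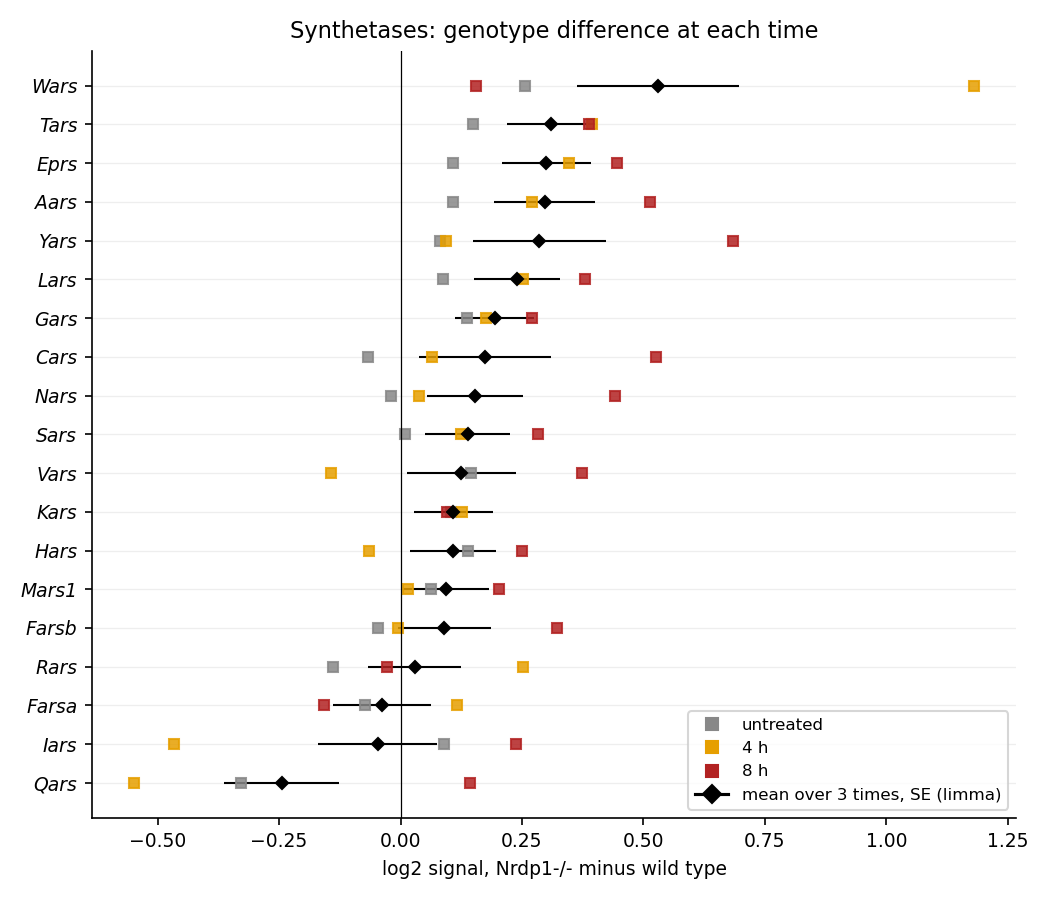
Log2 signal of Nrdp1-/- minus wild-type cells (x axis) for the 19 synthetases, as single-array differences for untreated, 4 h and 8 h cells (squares) and as the mean over the 3 times with its SE from limma (diamonds). None of the means passed an adjusted p of 0.05, and Wars at 4 h (1.18) lies farthest from 0.

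The change on stimulation did not pass a test of difference between the genotypes in any member. In the model with a genotype-by-stimulation term, 0 of 60 members were called, against 0.221% of all genes, and 0 had an unadjusted p under 0.05. In value, the change was larger in Nrdp1-/- cells for 14 of 19 synthetases at 4 h and 16 at 8 h, and for 21 and 23 of 41 initiation factors. Both times share the untreated arrays, and the same share over all genes was not counted. The term was 0.41 ± 0.26 for Wars and 0.28 ± 0.25 for Aars.

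The B cell and myeloid marker levels that differ between the genotypes stand beside these genotype values. All of 10 B cell markers tested were lower in Nrdp1-/- cells, with a median of -1.98, and 7 of 10 myeloid markers were higher, with a median of 1.70. On the Nrdp1-/- arrays the summed signal of the 13 myeloid markers was highest untreated and lowest at 8 h. Over the stimulation 6 of the 10 myeloid markers fell at 8 h. With 1 array per condition, cell composition and genotype cannot be told apart. The part of either marker list in the genotype values was not tested. In the ATF4 list, Asns was higher in Nrdp1-/- cells by 1.57 ± 0.11 (limma, adjusted p = 5.68e-06) and Cebpb by 0.56 ± 0.10 (adjusted p = 0.00914), while Atf4 did not pass (0.18 ± 0.09, adjusted p = 0.355).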

How the data were processed

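The values are linear signal intensities deposited by the authors, made with MAS5 per the submitters' processing notes, which give no version. The deposited values have a mean of 500 on every array once 2% of values at each end is left out. The median signal was 61.5 to 68.6 per array. The number of arrays limits the precision. Of 45037 probe sets that are not array controls, 34945 carry 1 gene symbol in the platform annotation, 932 several, and 9160 were unnamed here. Symbols were looked up in RefSeq (GRCm38.p6), with a match for 34741 probe sets and 0 changed symbols. Signals are printed to at most 4 significant digits.

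Genes whose brightest probe set reached the array median on at least 2 arrays were tested on log2(signal + 4.45), with the 10th percentile of all values as the pseudocount, a scale that understates changes of dim genes. limma 3.58.1 in R 4.3.3 fitted time and genotype as additive terms over the 6 arrays (lmFit, eBayes with intensity trend, Benjamini-Hochberg over 10838 genes, threshold 0.05), with 2 residual and 8.99 prior degrees of freedom. Every time had 1 array per genotype. The genotype-by-stimulation model had 1 residual degree of freedom and an infinite prior, so it rested on the trend alone. Errors are standard errors from these fits.

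The members, the other gene lists and the marker lists were chosen with earlier results of these data known. All synthetases are named, as are initiation factors that passed in any comparison and the eIF4E binding proteins. The other subunits of eIF2, eIF2B, eIF3 and eIF4F are named where they had a probe set under the rule. Signals on every array are given for the 12 risen initiation factors with the largest change at 8 h. Of the other lists, up to 4 genes with the largest change are named. Ddit3, Aimp1, Eif4enif1, Eif2d, Eif2a and the other eIF1, eIF4 and eIF5 genes were named after their values were seen. Alternatives were quantile normalization, median centring, pseudocounts of 1 and 24.3 (the 30th percentile), a brightness filter at the 70th percentile or none, averaging over all probe sets of a gene, eBayes without trend, the stimulated arrays alone for genotype, and leaving out each array.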

Additional observations from a re-analysis of the deposited data

How the results depend on the processing

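The counts of risen synthetases and initiation factors stayed within 1.5 times the values given under quantile normalization, median centring, pseudocounts of 1 and 24.3, a brightness filter at the 70th percentile or none, averaging over all probe sets of a gene, and leaving out any 1 array. Without the intensity trend in eBayes, limma called 0 synthetases risen at 4 h and 1 at 8 h, and 0 initiation factors at 4 h and 1 at 8 h; the cause was not tested. With 1 array left out, the counts ranged from 13 to 18 (synthetases, 4 h), 16 to 18 (synthetases, 8 h), 8 to 12 (initiation factors, 4 h) and 11 to 19 (initiation factors, 8 h). The remaining array of the affected time was then assumed to vary like the others. In those fits, and with median centring, more of all genes were called between 4 h and 8 h than in the full data. The count of members called between 4 h and 8 h, 0 in the full data, became 1 with median centring and 1 to 2 with an array left out. The count called between genotypes, also 0, became 1 with the mean of probe sets (Eif2b5), 1 on the stimulated arrays alone (Wars) and 0 to 2 with an array left out. The genotype-by-stimulation test had no residual degree of freedom with an array left out and was not run that way. Qars changed sign: with the mean of its probe sets it was -0.179 at 4 h and -0.043 at 8 h, and with 1 array left out it ranged from -0.207 to 0.25 at 4 h and from -0.238 to 0.345 at 8 h, with negative values of -0.207 and -0.042 at 4 h (without the wild-type 4 h array or the untreated Nrdp1-/- array) and -0.01 and -0.238 at 8 h (without the untreated or the 8 h Nrdp1-/- array). Over single genes and times, 378 results kept their direction and side of the threshold with an array left out, 35 lost the call and 3 gained it; under the other settings 476 kept and 82 lost it. These tallies cover the 19 synthetases and the 16 initiation factors that passed in the full data. Initiation factors that passed at neither time were left out, so calls they gained are not counted. A block by replicate number could not be fitted, since each genotype and time has 1 array and the labels carry no replicate numbers. The fit holds genotype beside time, so each time is compared within genotype.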
